A study of Homo sapiens with 7 samples.

Results

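The genes described here are those of the cytosolic ribosomal proteins, taken by symbol: RPL or RPS with a number, RPLP0, RPLP1, RPLP2 and RPSA. They were 80 of the 16044 genes listed in 3 deposited tables, with 45 of the large subunit, 29 of the small subunit and 6 paralogs (RPL22L1, RPL26L1, RPL36AL, RPL39L, RPL7L1 and RPS27L), and 76 of them stood in every table. The study knocked down (KD) the nuclear poly(A) polymerases by siRNA in HEK293 cells, an established line of human embryonic kidney, and asked which poly(A) sites (PASs) depend on which enzyme. Batch 1 was made with 3′READS, which reads RNAs from the base at which they were cleaved and given a poly(A) tail, and held 1 library each of siCtrl (control siRNA), siStarPAP (Star-PAP, encoded by TUT1), siPAPa (PAPα, PAPOLA) and siPAPg (PAPγ, PAPOLG). The library siPAPag, with both PAPα and PAPγ knocked down, had a table of its own that repeats the siCtrl library of batch 1. Batch 2 held 1 library each of siCtrl and siStarPAP, made with 3′READS+, so that only these conditions had a second library and protocol and batch cannot be told apart.

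Each ribosome holds nearly every cytosolic ribosomal protein once, so their mRNAs are among the most abundant of a growing cell. Most of these mRNAs are short, have a short 3′UTR and start with a terminal oligopyrimidine (TOP) motif, a C followed by a run of C and T through which their translation follows nutrient and growth signals. Their genes have left many processed pseudogenes in the human genome, which resemble the mRNA up to its poly(A) tail.

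The 3′ ends that carry the results are shown first as the 30 bases that end at the cleavage site. They are read from GRCh37, the build of the files, on the strand of the gene, with the poly(A) signal AATAAA or ATTAAA in capitals, and each lies in the annotated 3′UTR of its gene. The sites of the stalk proteins RPLP1 and RPLP0, of RPL13A, and of RPL27 and RPL23 in batch 2 are given, and those of RPLP0, RPL27 and RPL23 end in runs of A.
RPLP1, chr15:69747856-69747885, plus strand: ataacatgttcAATAAAaagctgaacttta
RPLP0, chr12:120634505-120634534, minus strand: caaggaAATAAAggcttacttctttaaaaa
RPL13A, chr19:49995071-49995100, plus strand: gagcccAATAAAgactgttaattcctcatg
RPL27, chr17:41154947-41154976, plus strand: tttgatcATTAAAaattataaagaaaaaaa
RPL23, chr17:37006334-37006363, minus strand: AATAAAaaaaaaaactaaacccattaaaaa

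The starts of 5 members with the TOP motif and of the paralog RPS27L, a member without it, are printed. The genes were also compared with other TOP mRNAs. Each line gives 10 bases before and 20 bases from the RefSeq start in GRCh38.p14, with the run of pyrimidines that opens with C at the start in capitals.
RPLP1, chr15:69452808-69452837, plus strand: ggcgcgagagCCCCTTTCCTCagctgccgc
RPLP2, chr11:809957-809986, plus strand: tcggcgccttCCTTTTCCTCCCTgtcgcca
RPL18, chr19:48619159-48619188, minus strand: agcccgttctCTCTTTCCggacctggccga
RPL13A, chr19:49487598-49487627, plus strand: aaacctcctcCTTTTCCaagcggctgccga
RPL36, chr19:5690285-5690314, plus strand: cggcgccagcCCTTCCgccacggccgtctc
RPS27L, chr15:63157458-63157487, minus strand: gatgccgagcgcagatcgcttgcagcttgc
Of the 65 members with an entry in the RefSeq table of starts, 46 (70.8%) had C and at least 4 further pyrimidines at a listed start, compared with 5.14% of 27305 genes. RPS27L had no such run, and with a shift of up to 2 bases the motif was found in 50 members (76.9%) and in 13.0% of all genes.

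The tables held between 2347192 sense-strand reads (siStarPAP of batch 2) and 16191098 (siPAPa). TUT1 had 83 reads in siCtrl and 2 in siStarPAP (two-sided Fisher's exact test, p = 6.72e-30), and PAPOLA had 71 in siCtrl and 12 in siPAPa (p = 1.75e-24) and 8 in siPAPag, where its siCtrl had 78 (p = 1.43e-24). TUT1 had only 6 and 4 reads in batch 2 (Fisher's exact p = 0.763). PAPOLG had 5 in siCtrl and 15 in the library labelled siPAPg (Fisher's exact p = 0.115). These labels could therefore not be checked from the reads. The study reports effective KD of the PAPs by immunoblot. Of 6 HEK293 markers all were listed, with a summed level between 896 RPM (siPAPg) and 2856 RPM (siCtrl) in batch 1. KRT18 held most of this sum, with 2648 RPM in siCtrl. There VIM had 152, NEFL 36.7, EYA1 15.3, NEFM 3.06 and PAX2 0.70 RPM. The 5 markers of leukocytes, erythrocytes, hepatocytes, endothelium and fibroblasts had no read in any table. RPM is the usual scaling of reads to sequencing depth, here to the library's PAS-supporting reads as in the study's methods. Intervals and tests on single libraries take in counting error alone, and they set library against library rather than condition against condition. The study's methods describe no removal of PCR copies, so that these intervals can be too narrow and these p-values too small.

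Ribosomal protein genes took a larger share of the reads in every KD library than in the siCtrl library of its batch. They held 7.38% of sense-strand reads in siCtrl (exact Clopper-Pearson 95% interval 7.36 to 7.40%), 12.997% in siStarPAP (12.98 to 13.02%), 12.04% in siPAPa (12.02 to 12.06%) and 11.63% in the library labelled siPAPg (11.61 to 11.65%). In siPAPag the share was 11.47% (11.45 to 11.49%), and siCtrl had 7.45% in the same table. In batch 2 it was 8.29% in siCtrl (8.26 to 8.33%) and 13.05% in siStarPAP (13.00 to 13.09%). The siStarPAP libraries averaged 13.02% ± 0.035 (SD, n = 2) and the siCtrl libraries 7.84% ± 0.646 (SD, n = 2), a difference of 5.18 percentage points with no overlap. The 2 libraries of each group differ in batch and protocol, so these SDs take in both differences. With 2 libraries a group the exact two-sided permutation test cannot go below p = 0.333, the value found here. It leaves out the pairing by batch. In bulk RNA, a change in the number of such mRNAs per cell and a change in all other RNA cannot be told apart.

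**Figure D1:**
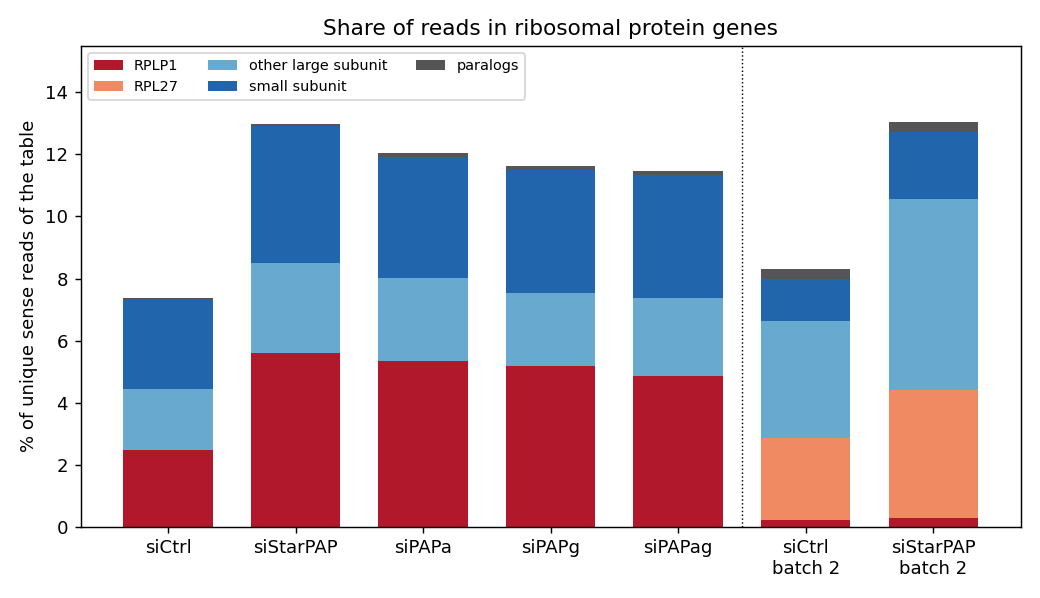
Share of sense-strand reads (%, vertical axis) held by the ribosomal protein genes in each of the 7 libraries, stacked as RPLP1, RPL27, other large subunit genes, small subunit genes and paralogs. Every KD library reaches between 11.47% and 13.05%, above the siCtrl libraries at 7.38% and 8.29%, and the single gene with the most reads is RPLP1 in batch 1 and RPL27 in batch 2.

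RPLP1, a protein of the acidic stalk that binds elongation factors, made up much of this share in batch 1. It had 198475 reads in siCtrl, 621272 in siStarPAP, 866322 in siPAPa, 448801 in the library labelled siPAPg and 527752 in siPAPag, or 33.4%, 43.0%, 44.4%, 44.5% and 42.3% of the reads of the members. In batch 2 it had 5690 reads in siCtrl and 6685 in siStarPAP, only 2.50% and 2.18% of the members' reads. RPLP1 was thus the member with the most reads in every library of batch 1 and a small part of the members' reads in batch 2. Without RPLP1 the other members held 5.04% of the reads in siCtrl and 7.85%, 7.07%, 6.81% and 6.96% in siStarPAP, siPAPa, siPAPg and siPAPag, and 8.10% and 12.80% in siCtrl and siStarPAP of batch 2. The small subunit genes alone went from 2.87% in siCtrl to 4.44%, 3.92%, 3.96% and 3.97% in the same order, and from 1.37% to 2.17% in batch 2. The large subunit genes other than RPLP1 and RPL27 went from 1.97% to 2.90%, 2.66%, 2.35% and 2.53%, and from 3.76% to 6.14%. The higher share in the KD libraries was therefore also seen without the member with the most reads and in each subunit.

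Levels spread widely among the members. Since 3′READS gives 1 read for each 3′ end, RPM does not depend on the length of the mRNA. In siCtrl of batch 1 the members ran from no read (RPS6, RPS26) to 17370 RPM (RPLP1), with a median of 117 RPM, 9 members above 1000 RPM and 17 below 10 RPM. Among the members with the most reads after RPLP1 were RPS28 with 40498, RPS4X with 30432, RPL18 with 29036, RPL8 with 26038, RPL13 with 24843, RPS12 with 11579 and RPS10 with 11251. RPL8, RPL13 and RPL18 belong to the large subunit, and the others named with them to the small one. At the other end, RPS6, the substrate of S6 kinase, had no read in siCtrl, siStarPAP or the library labelled siPAPg and 8 in siPAPa and in siPAPag. RPS6, RPS26 and the paralog RPL7L1 never had more than 50 reads in a pair of libraries and entered no comparison of expression. The study kept reads that mapped to 1 place, and the 32 bases that end at the leading PAS, the one with the most reads, occurred more than once in the genome for 22 of the 77 members with more than 50 reads (28.6%), compared with 3.68% of other genes. With members under that limit included, the median level was 103 RPM for 23 members with such copies and 143 RPM for 57 without, so that levels of single members are uncertain where copies share reads.

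Relative to the typical gene, ribosomal protein genes stood higher in all 5 comparisons of a KD with its siCtrl. Genes with more than 50 reads in a pair were compared by the log2 ratio of RPM. In siStarPAP the median of 74 members was 0.45 and that of all genes −0.45, in siPAPa 0.59 (75 members) and −0.26, in the library labelled siPAPg 0.19 (73 members) and −0.33, and in siPAPag 0.27 (74 members) and −0.38. In siStarPAP of batch 2 it was 0.59 (60 members) and −0.16. Members above the median of all genes were 69 of 74, 63 of 75, 55 of 73, 62 of 74 and 60 of 60 in the same order. The members' median lay above that of all genes by 0.90, 0.85, 0.52, 0.65 and 0.76, and this distance does not depend on the scaling. The TMM scaling of edgeR, under which the typical gene hardly changes, moved every log2 ratio up by 0.48, 0.34, 0.38, 0.43 and 0.18. With every member listed in the table and 1 read added to each count, the medians were 0.40, 0.58, 0.19, 0.26 and 0.66. All batch 1 comparisons, siPAPag included, share the siCtrl library of batch 1, and batch 2 shares no library with them.

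A gene was called higher or lower where the RPM ratio was above 1.4-fold and the two-sided Fisher's exact test gave p below 0.01, limits that the study used for gene expression in a comparison with PAS use. In siStarPAP 34 members were called higher and 4 lower, beside 10.3% higher and 44% lower of the 10079 genes tested. With TMM factors these were 58 and 3 members, beside 25.4% and 23.4% of all genes. In siPAPa 42 were called higher and 9 lower (all genes 16.9% and 37.2%), or 55 and 3 with TMM factors (28.8% and 24.7%). The library labelled siPAPg had 16 higher and 10 lower (12.1% and 37.7%), or 39 and 1 with TMM factors (24.4% and 21.7%). In siPAPag 17 were higher and 10 lower (14.2% and 41.9%), or 44 and 5 with TMM factors (28.1% and 25.6%). In siStarPAP of batch 2, 30 were higher and 0 lower (10.5% and 23.2%), or 44 and 0 with TMM factors (16.6% and 15.8%). Among members with at least 200 reads in both libraries, the 3 with the lowest ratios in batch 2 were RPS27L at −0.02, RPL32 at 0.01 and RPL13 at 0.20. Above 2-fold, 6 members were higher and 2 lower in siStarPAP (all genes 4.39% and 26.1%), 11 and 1 in siPAPa (8.2% and 22.1%), 7 and 2 in the library labelled siPAPg (5.55% and 20.7%), 5 and 4 in siPAPag (6.82% and 26.5%) and 10 and 0 in batch 2 (3.49% and 11.4%). The share of members called higher at 1.4-fold was above that of all genes in each comparison, and the split depends on the scaling most for siPAPg and siPAPag. Above 2-fold the members were not ahead in siPAPag, with 5 of 74 higher beside 6.82% of all genes. Across the subunits the medians were close, with 0.41 for large and 0.48 for small subunit genes in siStarPAP, 0.60 and 0.48 in siPAPa, 0.20 and 0.18 in the library labelled siPAPg, 0.28 and 0.18 in siPAPag, and 0.52 and 0.75 in batch 2. The 4 paralogs tested in siStarPAP had a median of 0.21, and 0 of them were called higher and 1 lower.

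**Figure D2:**
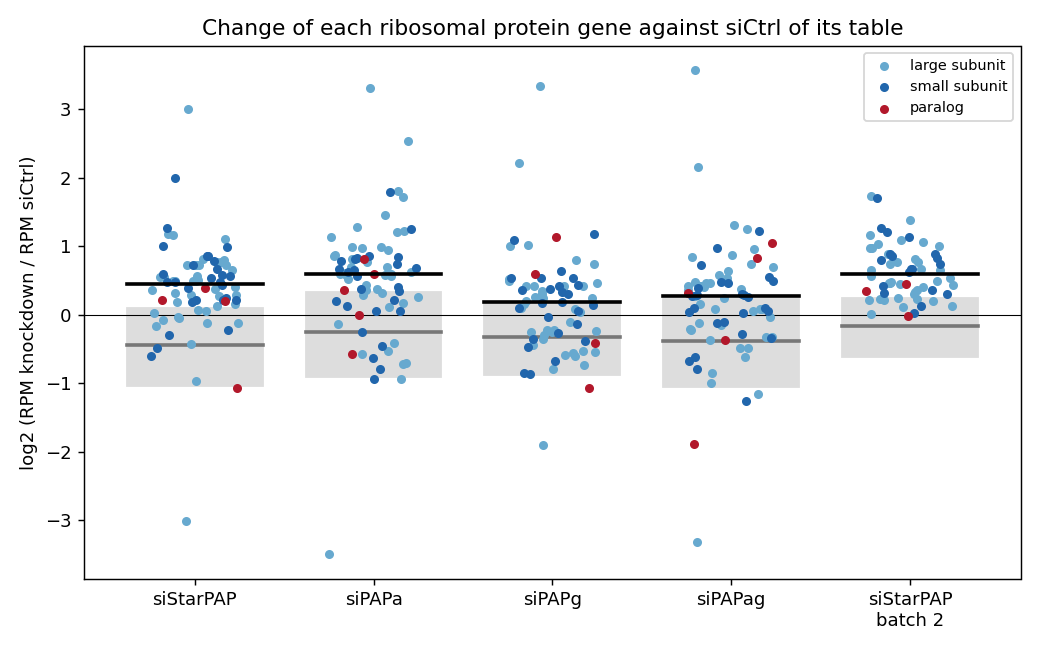
Log2 ratio of RPM to siCtrl (vertical axis) of each ribosomal protein gene with more than 50 reads in the pair, in 5 comparisons, coloured by class, with black lines at the median of the members, grey lines at that of all genes and grey boxes from the 25th to the 75th percentile of all genes. The members' median lies between 0.52 and 0.90 above that of all genes, and single members reach from below −3 to above 3.

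RPL13A, RPLP0, RPLP1, RPLP2 and RPS27A were called higher in all 4 comparisons of batch 1. RPL13A, a large subunit protein also known from the interferon response, had 56 reads in siCtrl, 652 in siStarPAP, 717 in siPAPa, 337 in the library labelled siPAPg and 409 in siPAPag, with 170 and 477 in siCtrl and siStarPAP of batch 2. All 5 KD libraries were higher than their siCtrl, with log2 ratios of 3.01, 2.54, 2.22, 2.15 and 1.74. Its batch 1 reads lay mainly at the site printed above (38 of 56 in siCtrl, 542 of 652 in siStarPAP), and its batch 2 reads only at a site 465 nt downstream, so that the batches measured different 3′ ends. Its PASs are listed under the pseudogene RPL13AP5 as well, and the gene of these reads is uncertain. RPL21 shares PASs with RPL21P28 and RPS10 with RPS10-NUDT3 in the same way.

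RPLP0, the stalk protein to which RPLP1 and RPLP2 attach, had only 16 reads in siCtrl of batch 1. It had 52 in siStarPAP, 347 in siPAPa, 209 in the library labelled siPAPg and 313 in siPAPag, and 396 and 460 in siCtrl and siStarPAP of batch 2. It was lowest in siCtrl of batch 1, with log2 ratios of 1.17 in siStarPAP (Fisher's exact p = 0.00419) and 3.30, 3.33 and 3.57 in the KDs of PAPα and PAPγ, while in batch 2 siCtrl was near siStarPAP at 0.46. In siPAPa 330 of its 347 reads lay at the site printed above, whose last 32 bases occur 4 times in the genome. Its batch 2 reads are listed at another position, with no run of A and 1 copy. The listed position of a cluster can shift, since 12 of 16 reads of siCtrl stand at 120634505 in 1 table and at 120634502 in that of siPAPag. Whether the batches measure the same 3′ end of RPLP0 can therefore not be told from the listed position. RPLP2 had 1174 reads in siCtrl and 2817, 6024, 3057 and 3757 in the KD libraries of batch 1, and 19 and 32 in batch 2. RPS27A, made as a fusion with ubiquitin, had 728 reads in siCtrl, 1826 in siStarPAP, 5533 in siPAPa, 2143 in the library labelled siPAPg and 2806 in siPAPag, with 168 and 224 in batch 2. Its log2 ratios were 0.79, 1.79, 1.18, 1.22 and 0.66, the highest in siPAPa. RPL13A and RPS27A were the members called higher in all 5 comparisons.

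The 3 largest rises of each KD were taken among members with at least 200 reads in both libraries. In siStarPAP they were RPL27A at a log2 ratio of 1.17, RPLP1 at 1.11 and RPS12 at 1.00. RPS27A was among them in all 3 KDs of PAPα and PAPγ. In siPAPa it was followed by RPL35A at 1.46 and RPL23A at 1.28, and in the library labelled siPAPg, after RPS27A at 1.18, by the paralog RPS27L at 1.13 and RPLP2 at 1.01. In siPAPag they were RPL23A at 1.25, RPS27A at 1.22 and RPLP2 at 0.96. RPS27L, whose gene is known as a p53 target, had 3573 reads in siCtrl, 5968 in siStarPAP, 11821 in siPAPa, 10138 in the library labelled siPAPg and 10490 in siPAPag. It was called higher in the KDs of PAPα and PAPγ. In siStarPAP its ratio of 0.21 was not called, but with TMM factors it was 0.68 and called higher. In batch 2 it had 5591 and 4649 reads and no call under either scaling. Among the largest rises of batch 2 were RPS16 at 1.27 (5374 and 10886) and RPS21 at 1.22 (335 and 655). RPS21 was not called in siStarPAP of batch 1, where its ratio was −0.22 and became 0.26 with TMM factors.

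RPL5 and RPL11, which bind 5S rRNA and can together inhibit MDM2, were both called higher in batch 2. RPL5 had 980 reads in siCtrl and 2092, 4980, 1746 and 2522 in the KD libraries, and 2049 and 3379 in batch 2, and it was called higher in siStarPAP, siPAPa, siPAPag and batch 2. RPL11 had 964 reads in siCtrl and 1319, 2292, 1022 and 1459 in the KD libraries, with 1286 and 1852 in batch 2. Its log2 ratios were −0.08, 0.12, −0.29 and −0.12 in batch 1, with no call, and 0.77 in batch 2. With TMM factors those of batch 1 were 0.40, 0.45, 0.09 and 0.31, so that the sign of RPL11 there depends on the scaling. The difference between RPL5 and RPL11 was not tested. RPS3 and RPS2, which lie at the mRNA entry channel, had log2 ratios of 0.86 and 0.24 in siStarPAP and 0.89 and 0.42 in batch 2, and RPL4, which lines the exit tunnel, had 0.65 and 0.57. RPL10, one of the last proteins to join the large subunit, had 3508 reads in siCtrl and 7176 in siStarPAP (0.50), but 9 and 4 reads in batch 2.

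Members called lower were fewer, and their number shrank when the shift of the typical gene was taken out. In siStarPAP the largest falls among well-counted members were RPL36AL at −1.07 (2401 and 1652 reads), RPL37 at −0.96 (454 and 337 reads) and RPS19, a protein mutated in Diamond-Blackfan anaemia, at −0.49 (1746 and 1799 reads). With TMM factors these were −0.60, −0.49 and −0.01, and RPS19 was no longer called. RPS4X, encoded on the X chromosome, had 30432 reads in siCtrl, 51322 in siStarPAP, 34801 in siPAPa, 21871 in the library labelled siPAPg and 31471 in siPAPag. Its log2 ratio was 0.22 in siStarPAP and −0.94, −0.85 and −0.67 in the KDs of PAPα and PAPγ, of which only that of siPAPa was still called lower with TMM factors, at −0.60, while siStarPAP had 0.70 and was called higher. RPL13, RPL23, RPL27, RPL35, RPS29 and RPS4X were the 6 members called lower in siPAPa, siPAPg and siPAPag alike, but with TMM factors RPL27 alone was still called lower in each of these, and RPL35 in none. In siPAPag the largest falls among members with at least 200 reads in both libraries were RPS29 at −1.26 (478 and 329 reads), RPL13 at −0.996 and RPL31 at −0.85. With TMM factors RPS29 and RPL13 stayed called, at −0.83 and −0.57. Below that read limit, RPL27 at −3.31 and the paralog RPL39L at −1.88 were lower in siPAPag, and both were called lower with TMM factors. RPL14 had 4432 reads in siCtrl and 11228 in siStarPAP (0.81) but 6772 in siPAPa and 3892 in the library labelled siPAPg (−0.52 and −0.56), where TMM factors gave −0.19 and −0.18 without a call. The difference between these KDs was not tested.

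siStarPAP was the only KD with a second library. Of 57 members with more than 50 reads in both batches, 45 had a log2 ratio above 0 in both and 0 below 0 in both, beside 18.2% and 49.8% of 6541 genes. Called higher in both were 17 members, beside 3.65% of all genes, among them RPL13A, RPL18, RPL23A, RPL27A, RPL28, RPL35A, RPL4, RPL5, RPS16, RPS27A and RPS3. The median of the mean ratios was 0.52. RPS3, at 0.86 and 0.89, and RPL18, at 0.73 and 0.81, were among those closest between the batches. RPL27, RPL36AL, RPL37 and RPS21 were among those far apart, with −3.01, −1.07, −0.96 and −0.22 in batch 1 and 0.66, 0.35, 0.24 and 1.22 in batch 2.

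**Figure D3:**
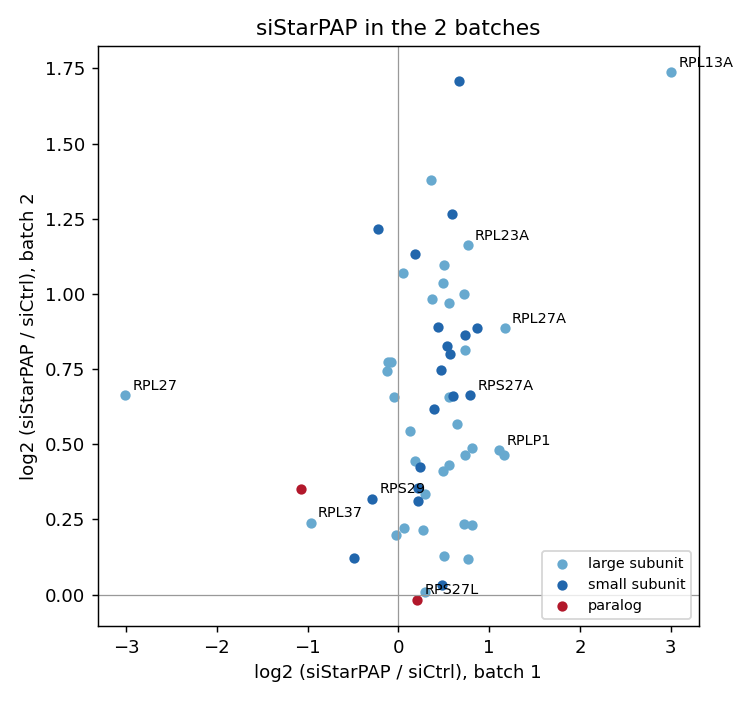
Log2 ratio of RPM in siStarPAP to siCtrl in batch 1 (horizontal axis) and batch 2 (vertical axis) for the 57 ribosomal protein genes with more than 50 reads in both, with named members. Most points (45 of 57) lie above 0 on both axes, and RPL27 at −3.01 and 0.66 lies apart.

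In an edgeR quasi-likelihood fit of the 4 siCtrl and siStarPAP libraries, with batch as a block, 3 of 74 members were called at a Benjamini-Hochberg adjusted p below 0.05 over 11614 genes, all higher, compared with 1.21% of all genes called higher and 1.08% lower. These were RPL13A (log2 fold change 2.69 ± 0.40 SE, adjusted p = 0.00194), RPL27A (1.38 ± 0.34, adjusted p = 0.0355) and RPL23A (1.31 ± 0.34, adjusted p = 0.0430). RPL13A rests on different sites in the batches. At an unadjusted p below 0.05 the fit had 44 members higher and 0 lower, beside 7.87% and 7.23% of all genes. The fit has 1 residual degree of freedom, and the number called ran from 0 without the block for batch to 19 with DESeq2.

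The KDs of PAPα and PAPγ had 1 library each, and a fit of all 7 libraries assumes that these vary between libraries as siCtrl and siStarPAP do between batches. It called 12 of 76 members higher and 1 lower in siPAPa (all genes 3.36% and 2.54%), 3 and 0 in the library labelled siPAPg (1.29% and 0.986%), 9 and 1 in siPAPag (3.4% and 3.3%) and 11 and 0 in siStarPAP (1.8% and 1.53%). RPLP0 had the smallest adjusted p of the members in siPAPa (log2 fold change 3.30 ± 0.51 SE, edgeR adjusted p = 1.39e-06), in the library labelled siPAPg (3.33 ± 0.51, 2.79e-06) and in siPAPag (3.71 ± 0.51, 1.15e-08). RPL13A and RPS27A were called higher with RPLP0 in these 3. RPL27 was called lower in siPAPa (−2.46 ± 0.63, adjusted p = 0.00663) and siPAPag (−2.14 ± 0.64, adjusted p = 0.0216). The intronic site that held 135 of its 139 reads in siCtrl of batch 1 held 18 of 27 in siPAPa and 14 of 23 in siPAPag.

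RPL27 had the largest excess of batch 2 over batch 1. In batch 1 it had 139 reads in siCtrl and 25, 27, 48 and 23 in siStarPAP, siPAPa, siPAPg and siPAPag, and the 135 reads in siCtrl lay in an intron at position 41152263 of chromosome 17. In batch 2 it had 72734 and 96892 reads in siCtrl and siStarPAP, of which 72731 and 96888 lay at the site in the last exon printed above, where siCtrl of batch 1 had 0 reads, which allows up to 3. This site ends in 7 A in the genome sequence. RPL23, whose batch 2 site ends in 5 A, had 120 reads in siCtrl of batch 1 and 3458 in that of batch 2. RPL27 made up 31.9% and 31.6% of the members' reads in batch 2.

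Many other members stood apart between the siCtrl libraries of the batches, of which there was 1 each. Of 69 members with more than 50 reads over both and some in each, 21 (30.4%) differed more than 10-fold in RPM, 15 of them lower in batch 2, compared with 11.5% of the other genes. RPS12 had 11579 reads in siCtrl of batch 1 and 0 in batch 2, and RPL10A had 2830 and 0. RPS28 had 40498 and 222, and RPL3 had 420 and 0. The median log2 ratio of batch 2 to batch 1 was −1.26 for members and −0.38 for other genes. The order of levels over 77 members had a Spearman's rho of 0.48 between the siCtrl libraries of the batches, but 0.985 (80 members) and 0.989 (77 members) between siCtrl and siStarPAP within batch 1 and batch 2. These are descriptions across genes, which share their library and are not replicates.

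**Figure D4:**
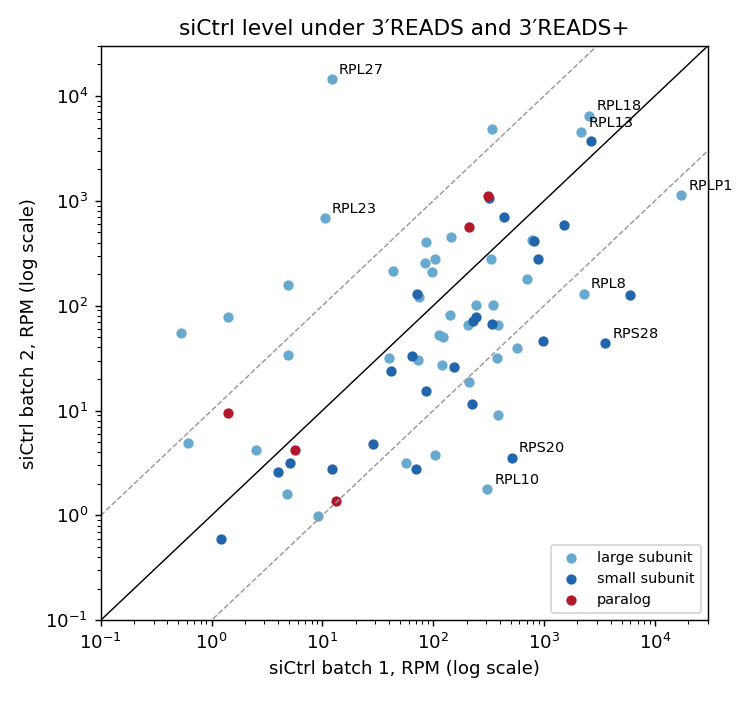
RPM of each ribosomal protein gene with reads in both siCtrl libraries, in batch 1 (3′READS, horizontal axis) and in batch 2 (3′READS+, vertical axis), both on log axes, with lines at equal levels and 10-fold apart. RPL27 lies far above the band, and RPLP1 and RPS28 lie below it.

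The run of A that ends the genome sequence at the leading site was set beside this difference. Among other genes, 355 had a run of 5 or more, and 300 of them were higher in batch 2, with a median log2 ratio of 1.72. Of the members, 5 had such a run, and 2 of them (RPL27 and RPL23) were higher in batch 2. Over 73 members the length of the run and the log2 ratio had a Spearman's rho of 0.29, and over 9670 other genes 0.22, given as a description. The part of the run in the difference between batches was not tested.

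Ribosomal protein genes had a single PAS more often than other genes. The table of batch 1 listed 160 PASs of members, and 56.3% of the 80 members had a single one, compared with 29.4% of other genes. In the table of siPAPag it was 48.1% and 30.3%, and in that of batch 2 48.1% and 36.4%. In these 2 tables members and other genes had the same median of 2 PASs. The values that follow are those of the table of batch 1. A leading PAS with more than 90% of the reads was found in 67.5% of the 77 members with more than 50 reads and in 38.6% of other genes. AATAAA stood within 40 nt upstream of the leading PAS in 61 of 77 members (79.2%) and in 63.6% of other genes. The 35 members with 2 or more PASs had the second one a median of 309 nt from the leading one, downstream in 21 of them.

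Members with 2 or more PASs and more than 50 reads were tested for the share of reads at the leading PAS (two-sided Fisher's exact test, Benjamini-Hochberg adjusted p below 0.05 over all genes tested). In siStarPAP 18 of 30 members were called, 9 with a higher and 9 with a lower share, beside 45.9% of 7605 genes. In siPAPa 19 of 31 (51.9% of all genes), in the library labelled siPAPg 18 of 29 (39.6%) and in siPAPag 25 of 38 (51.1%) were called, with 13, 13 and 14 of them at a higher share. In batch 2 it was 6 of 29, beside 14.1% of 5202 genes. With a change of at least 5 percentage points as well, 10, 13, 12, 11 and 4 members were called in the same order, beside 43.4%, 48.5%, 37.2%, 45.4% and 13% of all genes. The median size of the change was 4.99 percentage points for members and 10.1 for all genes in siStarPAP, 10.2 and 11.04 in siPAPa, 5.46 and 9.13 in the library labelled siPAPg, 2.86 and 10.1 in siPAPag, and 3.09 and 6.40 in batch 2. The members' median was lower in each comparison.

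For 6 members with large changes the leading and the second site are printed from GRCh37 as above, to show their signals, and each lies in an annotated 3′UTR except the second site of RPL3.
RPL36 leading, chr19:5691649-5691678, plus strand: ctccctgaAATAAAgaacagcttgacagaa
RPL36 second, chr19:5691857-5691886, plus strand: ctttaatcATTAAAtagcttctatgccaca
RPL37 leading, chr5:40832558-40832587, minus strand: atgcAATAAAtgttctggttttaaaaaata
RPL37 second, chr5:40831829-40831858, minus strand: gtgtttctgtgttaaagcactgaaacttgc
RPL35A leading, chr3:197682693-197682722, plus strand: taagtggATTAAAaaacttactaccttaaa
RPL35A second, chr3:197682659-197682688, plus strand: aataAATAAAtgtggatttgtgctcttgta
RPL3 leading, chr22:39708887-39708916, minus strand: ggtctcAATAAAagttattttccactgaca
RPL3 second, chr22:39700475-39700504, minus strand: aaaATTAAAgggtactgacctttgctttca
RPL23A leading, chr17:27051345-27051374, plus strand: tgcccAATAAAggacaaggacttcagagga
RPL23A second, chr17:27050927-27050956, plus strand: atatatatatatatatcttttcaccatata
RPL14 leading, chr3:40503830-40503859, plus strand: agtaggattatAATAAAcattaaataatca
RPL14 second, chr3:40503738-40503767, plus strand: aagtAATAAAggttctttttgacctgttga

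RPL36 and RPL37, large subunit proteins, had their leading PAS upstream of the second, by 208 and 729 nt. The leading site of RPL36 held 61.7% of its 2798 reads in siCtrl (exact 95% interval 59.8 to 63.5%), 80.0% in siStarPAP (79.0 to 81.0%), 93.7% in siPAPa (92.8 to 94.5%) and 81.1% in the library labelled siPAPg (79.7 to 82.5%). All of these KD libraries were above siCtrl by more than counting error, most in siPAPa, and the second site is not listed in the other tables. The RPL36 ratio of siPAPag therefore counts the leading site only, as does that of RPL3. The leading site of RPL37 held 54.2% of 454 reads in siCtrl (49.5 to 58.8%), 78.3% in siStarPAP (73.6 to 82.6%), 83.1% in siPAPa (80.9 to 85.1%) and 87.9% in the library labelled siPAPg (84.5 to 90.9%). It went from 53.2% to 86.0% in siPAPag and from 75.6% (68.2 to 82.1%) to 93.7% (88.7 to 96.9%) in batch 2 (Fisher's exact test, adjusted p = 0.000296). The share was higher in every KD library, and RPL37 was one of the 2 members whose leading share was called higher in batch 2.

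RPL35A, RPL23A and RPL14 had their leading PAS downstream of the second, by 34, 418 and 92 nt. RPL35A went from 38.7% of 850 reads in siCtrl (35.4 to 42.1%) to 53.6% in siStarPAP, 67.04% in siPAPa, 63.2% in the library labelled siPAPg and 63.7% in siPAPag, all called higher, and stood at 85.9% and 87.6% in batch 2 (Fisher's exact test, adjusted p = 0.582). RPL23A was at 74.6% in siCtrl, 75.8% in siStarPAP (adjusted p = 0.240 by Fisher's exact test), 88.4% in siPAPa, 81.9% in the library labelled siPAPg and 91.1% in siPAPag, and at 87.0% and 94.7% in batch 2 (adjusted p = 4.2e-05 by Fisher's exact test). Its share in siStarPAP was thus called in batch 2 and not in batch 1. RPL14 was at 91.7% in siCtrl, 93.5% in siStarPAP, 80.1% in siPAPa and 87.5% in the library labelled siPAPg, and at 90.3% in siPAPag. In batch 2 it fell from 81.5% (76.8 to 85.5%) to 69.8% (64.5 to 74.8%), where siStarPAP of batch 1 was called higher.

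RPL3, which lies near the peptidyl transferase centre, had its second listed site 8412 nt past the first, beyond the end of the annotated gene. The first held 60.7% of 420 reads in siCtrl (55.9 to 65.4%), 84.9% in siStarPAP (82.2 to 87.4%), 36.7% in siPAPa (34.2 to 39.4%) and 62.4% in the library labelled siPAPg (57.2 to 67.4%). It was above siCtrl in siStarPAP and below it in siPAPa, and not called in the library labelled siPAPg (Fisher's exact test, adjusted p = 0.788). Whether reads at the far site belong to RPL3 cannot be told from the table. RPSA, a small subunit protein also known as the laminin receptor, had 68.3% of 325 reads at its leading site in siCtrl (62.9 to 73.3%), 63.0% in siStarPAP, 57.2% in siPAPa, 61.2% in the library labelled siPAPg and 40.1% in siPAPag (35.4 to 44.9%), and its second site lies 82 nt upstream. The share was called lower in siPAPa and siPAPag only.

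**Figure D5:**
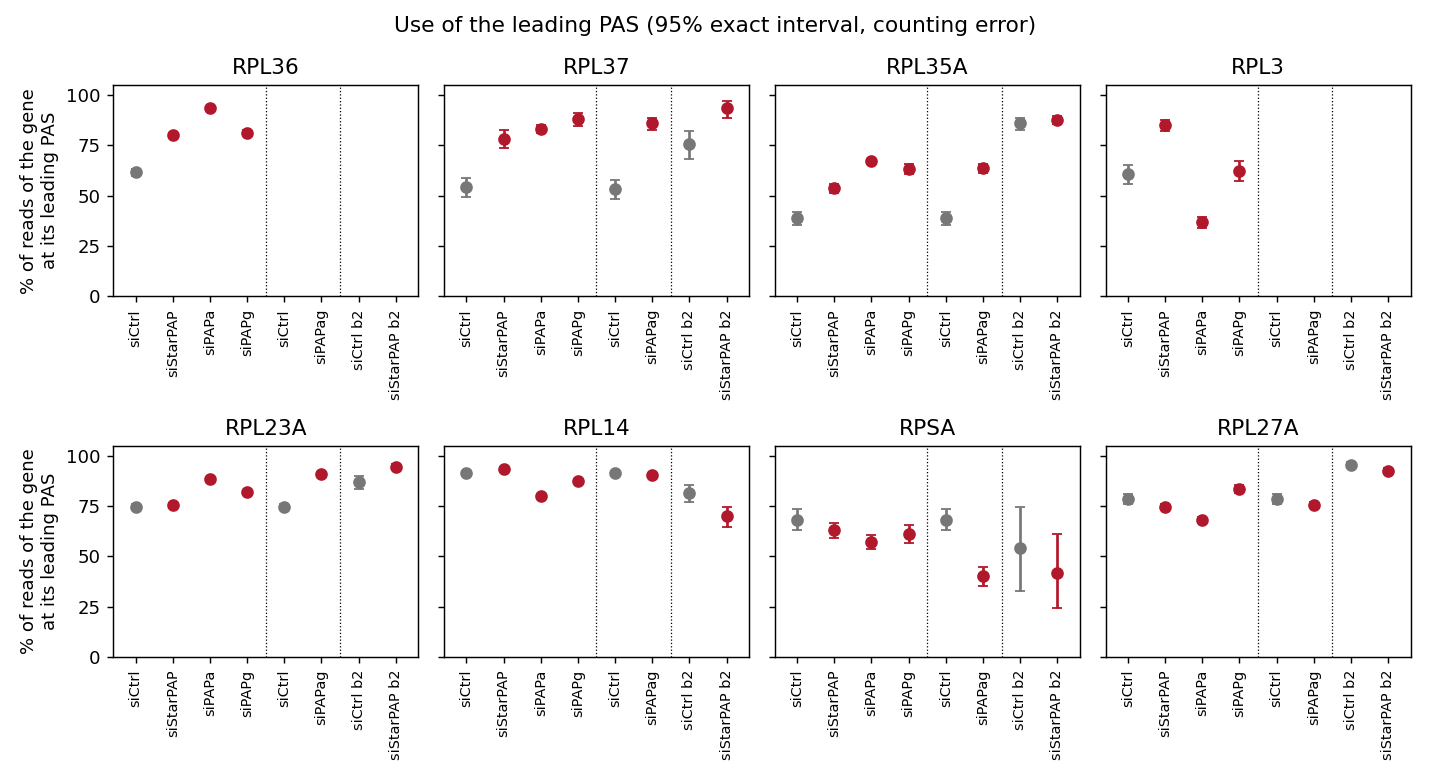
Share of a gene's reads at its leading PAS (%, vertical axis) in each library, with siCtrl in grey and KD libraries in red. Exact 95% intervals take in counting error. The members are among those with the largest changes in a comparison among members with at least 200 reads in both of its libraries, and not all of those are shown. Members with fewer reads, such as RPS13 and RPS25, had larger changes in some comparisons. The leading PAS was taken within each table, so it can be another site in the other batch, as for RPSA. Panels are empty where a table lists 1 site or none. RPL37 and RPL35A stand higher in every KD library of batch 1 than in siCtrl, and RPSA is lowest in siPAPag at 40.1%.

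Other genes of the translation machinery were described by the same calls. FAU, a ribosomal protein made as a ubiquitin-like fusion, had log2 ratios of 0.24, 0.99, 0.59, 0.60 and 0.70 in siStarPAP, siPAPa, siPAPg, siPAPag and batch 2, and it was called higher in all but siStarPAP of batch 1. GNB2L1, the scaffold protein RACK1, had 0.53, 0.50, 0.05, 0.44 and 0.99 in the same order, called higher in siStarPAP of both batches and in siPAPa. Among the other TOP mRNAs, in the same order, 6 of 18, 9 of 18, 3 of 18, 6 of 17 and 7 of 13 were called higher and 1, 1, 1, 1 and 0 lower, beside 10.3%, 16.9%, 12.1%, 14.2% and 10.5% of all genes higher and 44%, 37.2%, 37.7%, 41.9% and 23.2% lower. EIF3L, a subunit of initiation factor 3, was higher in all 5 (1.55, 1.28, 2.44, 2.74 and 1.86), and EEF2 was called in none (−0.19, −0.10, −0.13, −0.36 and 0.45). Against the same shares of all genes, of the ribosome assembly genes 1 of 18, 8 of 18, 3 of 18, 5 of 18 and 3 of 19 were called higher and 7, 5, 6, 6 and 2 lower, with GRWD1 and RRS1, both needed for the large subunit, called lower in all 5. Of the 4 regulators LARP1, MTOR, RPTOR and TSC2 (3 with enough reads in batch 2), 1 was called higher in each comparison and 2, 1, 1, 1 and 1 lower. The one called higher was LARP1, which binds TOP motifs, with log2 ratios of 1.17, 1.46, 0.98, 1.98 and 0.92. RPTOR, the Raptor subunit of the growth-regulating kinase complex mTORC1, was called lower in the 4 comparisons of batch 1 (−1.87, −1.22, −1.95 and −1.55) and not in batch 2 (−0.10). MTOR, the kinase itself, was called lower in siStarPAP of both batches (−1.82 and −0.75). TMM factors move each of these ratios up by the shifts given above, and the calls of these lists were made with RPM alone.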

How the data were processed

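PAS-supporting reads of 7 libraries of total RNA were used. Per the submitters' notes and the study's methods, the authors aligned reads with Bowtie2 (version not given in the sources used here) to hg19, kept those with mapping quality above 10 and at least 2 untemplated Ts, clustered sites within 24 nt and deposited counts of reads per PAS, without normalization. RPM used the PAS-supporting totals that the study gives for each library. The members and lists were chosen with earlier results of these data known. Sense PASs were summed per gene, and upstream antisense rows were left out of the main values. Columns without a sample numbered 0. Groups came from titles, and siPAPag was placed with batch 1, whose siCtrl it shares. Nothing in the labels says that libraries of a condition came from separate cultures.

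Ratios, shares (exact Clopper-Pearson intervals) and Fisher's exact tests compare 2 libraries. The study's SAAP program for PAS use was replaced by Fisher's exact test. edgeR quasi-likelihood fits (TMM, filterByExpr) had batch as a block. The pairing comes from the batch label, and batch differences of siCtrl and siStarPAP correlated at r = 0.840 over 11614 genes. DESeq2, other scalings, filters, fold limits and PAS definitions were alternatives. Simulated 4-fold changes were recovered for 192 of 200 genes with 7 false calls among 11386 genes in the siStarPAP fit of 4 libraries, and for 148 of 200 with 8 among 12689 in the siPAPa fit of 7 libraries. In siPAPa the PAS test found 172 of 200 simulated shifts and made 3 false calls in 8264 genes. Simulated gene counts had the same dispersion for every gene, and simulated PAS reads had no variation between libraries beyond counting. These numbers are therefore not error rates for these data, where the PAS test called 51.9% of the genes in siPAPa.

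Named were the 10 members with the most reads in siCtrl, the 3 largest rises and falls and 5 largest changes of leading share per comparison (at least 200 reads in both libraries), members called over both batches, members with a named role, and the paralogs. RPL10A, RPL23, RPL27 and the members listed by shared calls were named after their values were seen. Some genes that the rule names are not reported here. Sites were read from GRCh37 and starts from RefSeq (GRCh38.p14), with 65 of 80 members matched. Tools were R 4.3.3 (edgeR 4.0.16, DESeq2 1.42.0) and Python 3.11.15 with matplotlib 3.10.9, numba 0.67.0, scipy 1.17.1, pandas 2.3.3 and numpy 2.4.6.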

Additional observations from a re-analysis of the deposited data

Results flagged for a closer look

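The share of reads at the leading PAS of RPL14 rose by 1.84 percentage points in siStarPAP of batch 1 and changed by −11.6 percentage points in batch 2, each called on its own, and the difference between the batches was not tested. RPL27 had a log2 ratio of −3.01 in siStarPAP of batch 1, at an intronic site, and of 0.66 in batch 2, at the site in its last exon, and this difference was not tested either. In the upstream antisense reads, which no comparison of the report uses, RPS29 had 56 reads in the library labelled siPAPg and 21 in siCtrl (two-sided Fisher's exact test, p = 0.00387).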

How the results depend on the processing

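No alternative reversed the direction of the members' median. With TMM factors 9, 3, 13, 13 and 1 single members went from below to above 0 in siStarPAP, siPAPa, siPAPg, siPAPag and batch 2. With TMM factors the members' medians were 0.93 (siStarPAP), 0.93 (siPAPa), 0.57 (siPAPg) and 0.70 (siPAPag), and with DESeq2 size factors 0.93, 0.90, 0.55, 0.70 and, in batch 2, 0.79. With table totals they were 0.72, 0.46 and 0.54 in siPAPa, siPAPg and siPAPag. Calls with TMM factors were 58 higher in siStarPAP, 3 lower in siPAPa, 39 higher and 1 lower in siPAPg, and 44 higher and 5 lower in siPAPag. With table totals siPAPg had 33 higher and 4 lower and siPAPag 39 higher. Above 2-fold the calls were 6 and 2, 11 and 1, 7 and 2, 5 and 4, and in batch 2 10 higher.

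With all PAS-supporting reads as denominator the shares of siCtrl, siStarPAP, siPAPa, siPAPg and siPAPag were 5.20%, 8.73%, 7.77%, 6.82% and 6.64%, and 4.52% and 7.21% in batch 2. Without RPLP1 they were 5.04%, 7.85%, 7.07%, 6.81% and 6.96%, and 8.10% and 12.80%. With antisense reads counted they were 7.35%, 12.95%, 12.00%, 11.59% and 11.41%, and 8.22% and 12.96%.

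Without the replicate block for batch, edgeR called 0 members in siStarPAP, and 0 at an unadjusted p below 0.05 (17 genes higher and 45 lower of all). With the block, 11 were called without the count filter, 11 in the fit of all 7 libraries and 19 by DESeq2, where 13 of 77 had no adjusted p. DESeq2 called 18 in the fit of all 7. Leaving out a batch leaves 1 library per group and no test, and the median of siStarPAP then ran from 0.48 to 0.66.

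Members called for the leading PAS numbered 10 in siStarPAP and 11 in siPAPag at 5 or more percentage points. At 10 or more they were 10 in siStarPAP, 7 in siPAPg, 9 in siPAPag and 3 in batch 2 (35.8%, 30.6%, 38.3% and 11.1% of all genes). With PASs over 5% of the gene there were 15 in siPAPag. After seeing the data, members whose leading site occurs once in the genome were tried, with medians of 0.37, 0.55, 0.18, 0.25 and 0.54. PAPOLG had too few reads to check siPAPg, and members near 50 reads are the least precise.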
